A study of Arabidopsis thaliana with 6 samples.

Results

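SPL (AT4G27330), EMS1 (AT5G07280), ROXY1 (AT3G02000) and ROXY2 (AT5G14070) are 4 Arabidopsis thaliana genes that act while the cell layers of the young anther are being laid down. They were chosen by gene, through the annotation of the array, and each was measured by 1 probe set, which makes 4 of the 22746 probe sets that are not array controls. The data come from anthers of the myb80 mutant and from anthers of wild-type plants, with 3 Affymetrix arrays in each group, called replicates 1, 4 and 5-2 of the mutant and replicates 2, 5 and 6 of the wild type. MYB80 is a MYB transcription factor of the tapetum, the inner anther wall layer that nourishes the microspores, and no allele, accession or plant age was given for either genotype. According to the labels, each replicate was a dissection of roughly 1000 anthers from stage 5 up to stage 8, so every array averages over several cell types and developmental stages. Fewer cells of a type and less RNA per cell cannot be told apart in such samples.

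The genes act early in a well-studied order of events. SPL, also called NOZZLE, is a nuclear regulator without which the sporogenous cells, the precursors of the pollen mother cells, do not form. EMS1, also called EXS, is a leucine-rich repeat receptor kinase that perceives the small secreted protein TPD1 together with the co-receptors SERK1 and SERK2, and in its absence the tapetum is missing and pollen mother cells are in excess. ROXY1 and ROXY2 are CC-type glutaredoxins, a plant class of small redox proteins, which act redundantly in the formation of anther lobes and bind TGA-type bZIP factors such as TGA9 and TGA10. In genetic studies the tapetal factors DYT1, TDF1, AMS and then MYB80 follow after these early genes. Setting the mutant against the wild type thus asks whether genes that act before MYB80 differ in transcript level when MYB80 is mutated.

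None of the 4 genes passed the test between mutant and wild type, and 1 of them, ROXY2, had an unadjusted p under 0.05. The group means of SPL were nearly equal. EMS1 was 1.55-fold higher in the mutant by group means. ROXY2 was 2.34-fold higher, with 2 of its 3 wild-type arrays at the lower limit used for the intensities. ROXY1 lay at or near that limit. The values below are scaled intensities, that is, the deposited linear intensities after each array was multiplied by 1 factor to give all arrays the same median. For averages and tests, values under 16 were raised to 16, called the floor here, and log2 transformed. Differences were tested with limma (two-sided, Benjamini-Hochberg adjustment), and a probe set was called at an adjusted p under 0.05. The test was run without the dimmest 1 in 3 probe sets, which left 15164, and again on all 22746. SPL and EMS1 are in the smaller set. ROXY1 and ROXY2 fell among the dimmest and were tested only on all 22746. In the smaller set 2.05% of probe sets were called, 0.448% higher and 1.6% lower in the mutant. On all probe sets 0.0132% were called, so the absence of a call for ROXY1 and ROXY2 is what nearly every probe set showed in that test. With 3 arrays a group the precision is limited, and since the labels do not say whether replicates were grown apart, the p-values measure only the spread between these samples.

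**Figure D1:**
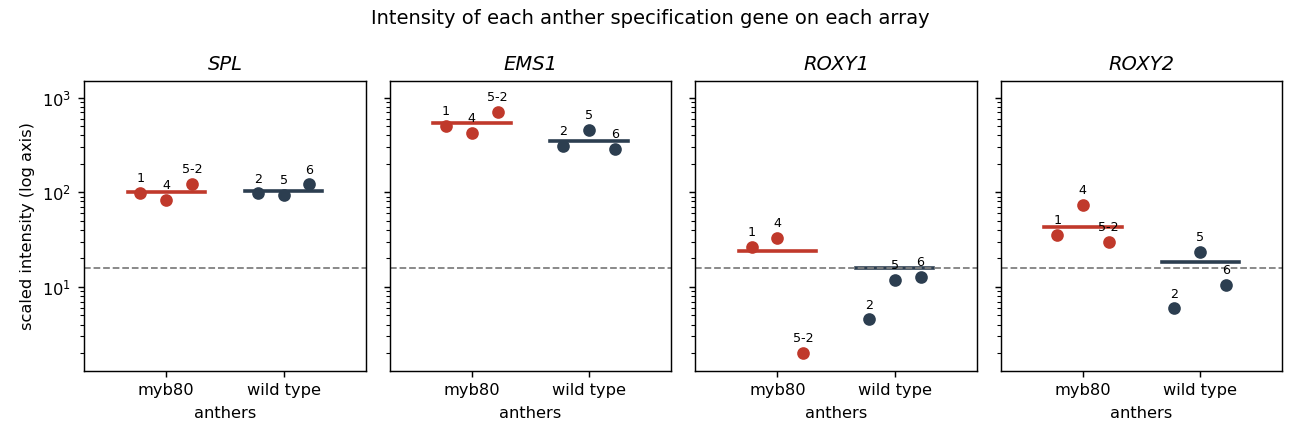
Scaled intensity (log axis) of SPL, EMS1, ROXY1 and ROXY2 on each array, with the mutant arrays on the left of each panel and the wild-type arrays on the right. Each point is 1 array and carries its replicate name, the solid line is the geometric mean after values were raised to the floor, and the dashed line is the floor of 16. The SPL points of the groups overlap, EMS1 is highest on mutant replicate 5-2 at 709, and ROXY2 is highest on mutant replicate 4 at 74.1.

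SPL had scaled intensities of 97.8, 83.2 and 124 on mutant replicates 1, 4 and 5-2, against 97.2, 93.0 and 121 on wild-type replicates 2, 5 and 6. Both the lowest and the highest of the 6 values came from mutant arrays, so the wild-type values lay inside the mutant range. This held only for that scaling: the highest value was a wild-type one as deposited (110.1 at most in the mutant and 122 in wild type) and after quantile normalization (115 and 122), and the groups overlapped under each. The mutant had a geometric mean of 100.2 and the wild type one of 103. The log2 difference was -0.042 with an SE of 0.27 (limma adjusted p = 0.981 for 3 arrays a group). Its 95% interval ran from -0.66 to 0.58 on the log2 scale, which corresponds to 0.633-fold to 1.49-fold, so differences within that span cannot be told from none with these arrays. The sign of a value this close to 0 was not stable: it was 0.092 without mutant replicate 4 and 0.075 without wild-type replicate 6.

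EMS1 had scaled intensities of 508, 424 and 709 on mutant replicates 1, 4 and 5-2, against 311, 459 and 290.2 on wild-type replicates 2, 5 and 6. The groups overlapped in 1 place only, where wild-type replicate 5 lay above mutant replicate 4. The log2 standard deviation was 0.38 among mutant arrays and 0.36 among wild-type arrays. The geometric means of 535 in the mutant and 346 in wild type gave a log2 difference of 0.63 with an SE of 0.31 (limma adjusted p = 0.47). The 95% interval ran from -0.068 to 1.32, or from 0.954-fold to 2.50-fold.

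Whether the EMS1 groups overlapped depended on how the arrays were scaled. On the intensities as deposited, the mutant arrays ran from 473 to 632 and the wild-type arrays from 293 to 459, with no overlap. After quantile normalization the ranges were 501 to 593 in the mutant and 297 to 463 in wild type, again apart. For comparison, as deposited the mutant arrays all lay above the wild-type arrays in 10.5% of the 15164 brighter probe sets, and in 8.38% after scaling to a common median. No such share is given after quantile normalization. The log2 difference of EMS1 moved little with these choices, to 0.66 under both, and neither brought it past the threshold (limma adjusted p = 0.35 as deposited and 0.321 after quantile normalization).

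ROXY1 had scaled intensities of 26.3, 32.8 and 2.00 on mutant replicates 1, 4 and 5-2, against 4.53, 12.0 and 12.9 on wild-type replicates 2, 5 and 6. Mutant replicates 1 and 4 lay above every wild-type array, but mutant replicate 5-2 had the lowest value of the 6. All 3 wild-type arrays and 1 mutant array were at or below the floor. With 4 of the 6 values set by the floor, no fold is given. The log2 difference on floored values was 0.58 with an SE of 0.28 (limma adjusted p = 0.596) and a 95% interval from -0.16 to 1.33. The wild-type arrays had a spread of 0 after flooring, so the error comes from the mutant arrays and from the variance that limma shares across probe sets. With no floor it was 0.43 (adjusted p = 0.955). Without mutant replicate 5-2 the difference was 0.91 (adjusted p = 0.167), and without mutant replicate 4 it was 0.34 (adjusted p = 0.676).

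ROXY2, which acts redundantly with ROXY1, had scaled intensities of 35.1, 74.1 and 29.6 on mutant replicates 1, 4 and 5-2, against 5.92, 23.4 and 10.5 on wild-type replicates 2, 5 and 6. All mutant arrays lay above all wild-type arrays, and this held as deposited and after quantile normalization as well. After scaling to a common median, groups set apart in this direction occurred in 6.46% of all 22746 probe sets. In the 15164 brighter probe sets, which do not hold ROXY2, the share was 8.38% after that scaling and 10.5% as deposited. No share is given after quantile normalization. No mutant array and 2 of the 3 wild-type arrays were at the floor, so the 2.34-fold difference understates the measured one. The log2 difference was 1.23 with an SE of 0.41 (limma adjusted p = 0.422) and a 95% interval from 0.15 to 2.31 that is not adjusted for the number of probe sets. The unadjusted p was 0.0327, and 4.56% of all probe sets were higher in the mutant with an unadjusted p under 0.05. Mutant replicate 4 carried much of the difference: without it the value was 0.81 (adjusted p = 0.314). With no floor the difference was 1.91 (adjusted p = 0.397).

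**Figure D2:**
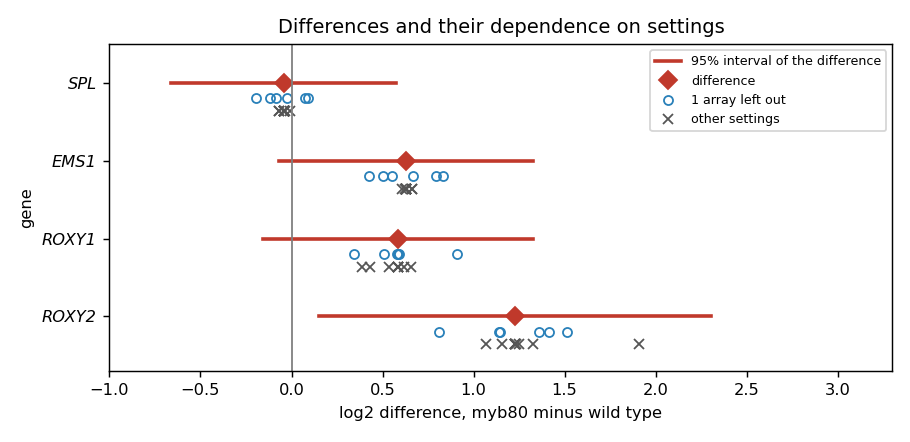
Log2 difference (mutant minus wild type, horizontal axis) of SPL, EMS1, ROXY1 and ROXY2. The diamond and bar are the difference and its 95% interval, the open circles are the differences with 1 array left out, and the crosses are those under the other settings tried. The ROXY2 values all lie above 0, from 0.81 to 1.91, whereas the SPL values lie on both sides of 0, from -0.19 to 0.092.

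The responses of the 4 genes were set against each other as ratios within each array. In the ratio of EMS1 to SPL, both above the floor on all 6 arrays, the factor that scales the array cancels. The other 5 pairs hold ROXY1 or ROXY2, and where such a gene was raised to the floor the ratio follows the other gene alone and the factor does not cancel. The log2 ratio of EMS1 to SPL was 2.38, 2.35 and 2.52 on mutant replicates 1, 4 and 5-2, against 1.68, 2.30 and 1.26 on wild-type replicates 2, 5 and 6. The mutant values were close together and all above the wild-type values, by a mean of 0.67 on the log2 scale. An exact two-sided permutation test over the 6 arrays gave p = 0.1, the smallest that 3 arrays against 3 allow, and 0.4 after adjustment over the 6 pairs of genes. The SD of this log2 ratio was 0.091 among mutant arrays and 0.53 among wild-type arrays. This small spread was noticed after the values were seen and was not tested.

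The ratio of ROXY2 to SPL was higher in the mutant by 1.27 on the log2 scale, with means of -1.24 ± 0.97 in the mutant and -2.51 ± 0.47 in wild type (SD, n = 3 each; exact permutation p = 0.2, adjusted p = 0.4). ROXY2 over ROXY1 differed by 0.65 and ROXY1 over SPL by 0.63, with exact permutation p of 0.2 and 0.4. ROXY2 over EMS1 differed by 0.60 (exact permutation p = 0.4), and ROXY1 over EMS1 by -0.045 (exact permutation p = 0.9). With no floor ROXY2 over SPL differed by 1.95, ROXY2 over ROXY1 by 1.48 and ROXY2 over EMS1 by 1.28. No pair could have passed at this number of arrays, so these values do not show that any pair responds alike or differently.

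**Figure D3:**
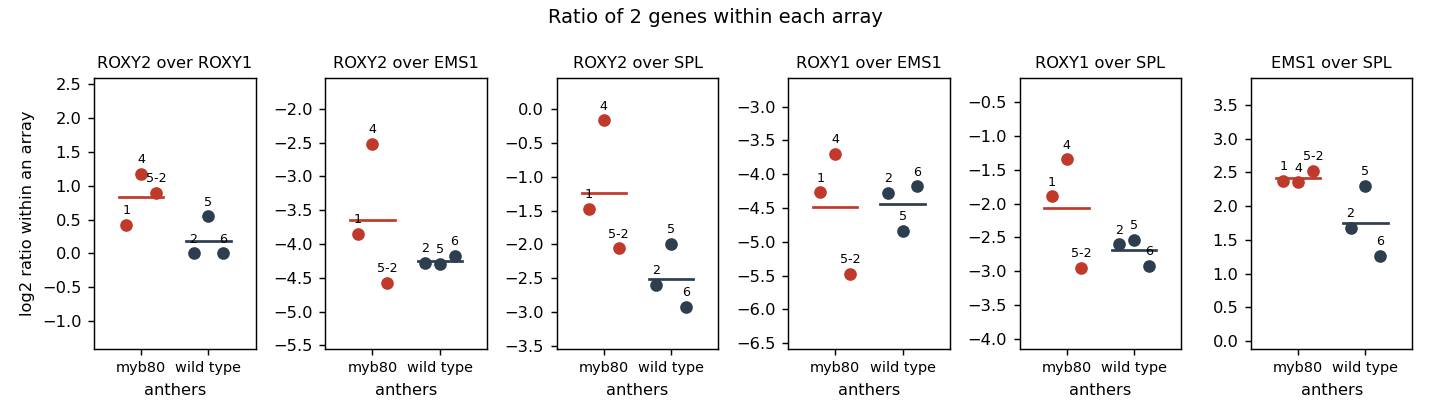
Log2 ratio of 2 genes within each array (vertical axis, a span of equal height in each panel) for the 6 pairs among SPL, EMS1, ROXY1 and ROXY2, with mutant arrays left and wild-type arrays right. Each point is 1 array with its replicate name and each line is a group mean. In EMS1 over SPL the mutant points lie between 2.35 and 2.52, above the wild-type points, while in the ratios of ROXY1 or ROXY2 to EMS1 or SPL mutant replicate 4 lies highest and mutant replicate 5-2 lowest among the mutant arrays.

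Among the mutant arrays the genes fell into opposite orders. SPL and EMS1 were highest on mutant replicate 5-2 and lowest on mutant replicate 4, with ratios of 1.49 and 1.67 between those arrays. ROXY1 and ROXY2 were highest on mutant replicate 4 and lowest on mutant replicate 5-2, with ratios of at least 2.05 for ROXY1 and of 2.50 for ROXY2. Over the 20402 probe sets above the floor on at least 1 mutant array, the order of SPL and EMS1 occurred in 25.7% and that of ROXY1 and ROXY2 in 15.7%. As deposited, these shares were 14.8% and 24.4% of 20426 probe sets, and SPL, EMS1, ROXY1 and ROXY2 kept their orders. AMS, the basic helix-loop-helix factor of the tapetum, had the order of SPL and EMS1, at 2037, 1173 and 3359 on mutant replicates 1, 4 and 5-2, against 847, 774 and 863 on wild-type replicates 2, 5 and 6. All 7 measured microspore and pollen genes had mutant replicate 4 as the highest mutant array. This was so for 24.8% of the 15164 brighter probe sets, and for 37.6% of them as deposited. Only MGH3, AGL104 and AGL66 had the whole order of ROXY1 and ROXY2, which held for 12.5% of the 15164 brighter probe sets. AGL30, ACT12, AT5G45880 and VEX1 were lowest on mutant replicate 1. As deposited VEX1 had the whole order too, and the share was 22.3%. AGL30, AGL66 and MGH3 were named after their values were seen. The summed intensity of the 7 was 289, 2078 and 497 on mutant replicates 1, 4 and 5-2, against 6820, 4513 and 4300 on wild-type replicates 2, 5 and 6. AT5G45880, named after its values were seen, made up most of the larger sums. Without it the other 6 summed to 258, 652 and 260.1 on mutant replicates 1, 4 and 5-2, against 1833, 1299 and 1041 on wild-type replicates 2, 5 and 6. The part of these differences between arrays in the values of ROXY1 and ROXY2 was not tested.

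The family of CC-type glutaredoxins, to which ROXY1 and ROXY2 belong, was measured for 17 of its 21 listed genes. In 7 of these the probe set was bright enough for the smaller test, where 1 fell, none rose and 6 did not pass; the background of calls there is 2.05%. On all probe sets none of the 17 passed in limma, and 4 had an unadjusted p under 0.05. These were GRX480, AT2G30540 and ROXY2, higher in the mutant, and AT3G62960, lower. Over all 22746 probe sets, 4.56% were higher in the mutant with an unadjusted limma p under 0.05. No such share is given for lower ones. The median log2 difference of the 17 was 0, equal to that of all 22746 probe sets, and the range ran from -2.78 to 1.23, with ROXY2 at the top. In 2 of the 17, AT3G62950 and AT4G15690, all arrays stood at the floor. The floor fixes their differences at 0, and the median of the 17 falls on these genes.

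The gene that fell was AT3G62960, a CC-type glutaredoxin gene. Its scaled intensities were 34.1, 90.9 and 27.2 on mutant replicates 1, 4 and 5-2, against 327, 244 and 343 on wild-type replicates 2, 5 and 6. Every mutant array lay far below every wild-type array. Its level was 6.87-fold lower in the mutant, a log2 difference of -2.78 with an SE of 0.43 (limma adjusted p = 0.0191) and a 95% interval from -3.76 to -1.80. The adjusted p was 0.221 on all probe sets. With 1 array left out it passed in 2 of 6 tests, those without mutant replicates 1 and 4, with adjusted p from 0.00137 to 0.0953.

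Besides ROXY2, GRX480 and AT2G30540 had every mutant array above every wild-type array; both were named after their values were seen. GRX480, a glutaredoxin that is known to bind TGA factors in salicylate signalling, had 58.9, 90.6 and 83.6 on mutant replicates 1, 4 and 5-2, against 37.1, 58.3 and 34.9 on wild-type replicates 2, 5 and 6. AT2G30540 had 137, 233 and 144 on mutant replicates 1, 4 and 5-2, against 94.1, 63.8 and 95.3 on wild-type replicates 2, 5 and 6. Neither passed: the log2 differences were 0.85 ± 0.31 for GRX480 and 1.00 ± 0.31 for AT2G30540 (SE, limma adjusted p = 0.274 and 0.185). Groups did not overlap in 3 of the 17 family members upwards and in 1 downwards, against 6.46% and 6.91% of all 22746 probe sets.

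Mutant replicate 4 was also high for much of the family. Mutant replicate 4 was the highest mutant array for 11 of the 13 family members that were above the floor on at least 1 mutant array, ROXY1 and ROXY2 included, against 29.5% of all such probe sets. The whole order of ROXY1 and ROXY2, with mutant replicate 5-2 lowest, held for 5 of the 13 with these genes counted, against 15.7%. As deposited, mutant replicate 4 was the highest mutant array for 12 of 14, against 40.3% of all such probe sets. After quantile normalization it was the highest for 11 of 13, against 35.0%. The whole order held for 6 of 14 as deposited, against 24.4%, and for 5 of 13 after quantile normalization, against 18.1%. These counts were made after the values were seen, and the family members share the same arrays, so they are given as a description.

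**Figure D4:**
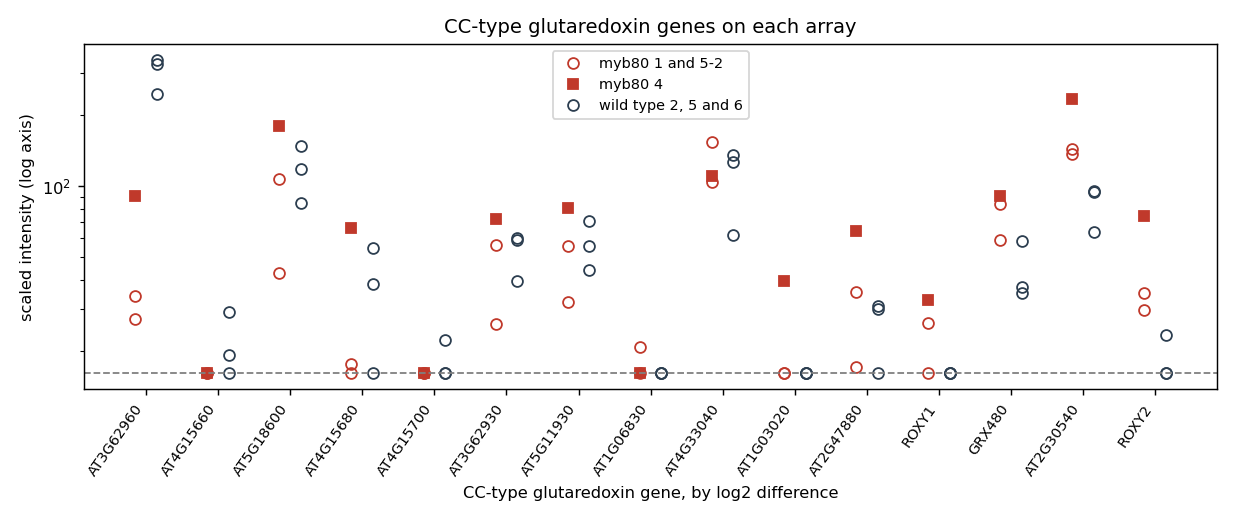
Scaled intensity (log axis, values under 16 drawn at the dashed floor) of the CC-type glutaredoxin genes with at least 1 array above the floor, in order of log2 difference from lowest to highest. Mutant arrays are in red on the left of each gene, with replicate 4 as a filled square, and wild-type arrays are in dark blue on the right. AT3G62960 at the left end has its mutant arrays between 27.2 and 90.9, below its wild-type arrays, and ROXY2 at the right end has them between 29.6 and 74.1, above its wild-type arrays.

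Few other genes around SPL, EMS1 and the ROXY pair were analysed here. EMS1 was the 1 measured gene of 14 in the list of its receptor pathway, which also holds TPD1, SERK1 and SERK2, and none of the 10 TGA factors was analysed here. Of 9 regulators of stamen identity, JAG and NUB, a pair of related zinc finger genes of stamen and carpel growth, were measured, both among the dimmest probe sets. JAG had 1.99, 22.9 and 14.5 on mutant replicates 1, 4 and 5-2, against 31.8, 17.3 and 6.91 on wild-type replicates 2, 5 and 6, and NUB ran from 5.08 to 22.9 in the mutant and from 4.64 to 39.7 in wild type. Their log2 differences were -0.20 ± 0.33 for JAG and -0.27 ± 0.43 for NUB (SE, limma adjusted p = 0.911 and 0.905 on all probe sets).

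Of 13 genes listed as tapetum regulators, 4 were measured, and none passed. SPL was listed among them and had the lowest log2 difference of the 4, -0.042. The median log2 difference of the 4 was 0.92, against 0.036 over the 15164 brighter probe sets. AMS differed by 1.28 ± 0.38 (SE, limma adjusted p = 0.148), and bHLH091, a close partner of DYT1 in the tapetum, by 1.28 ± 0.51 (adjusted p = 0.33). For bHLH091 the mutant values were 361, 98.1 and 438 on replicates 1, 4 and 5-2, against 94.7, 102 and 113 on wild-type replicates 2, 5 and 6, so mutant replicate 4 was at the wild-type level. It shares its highest and lowest mutant array with SPL and EMS1. AMS passed with array weights (adjusted p = 0.04996) and without mutant replicate 4 (log2 difference 1.66, adjusted p = 0.0237). The level of MYB80 itself was not analysed here, so the labels were not checked on the mutated gene.

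Markers of other anther cells and of other tissues bear on what the arrays sampled. In the test on the 15164 brighter probe sets, 2.05% of the 15164 were called. As shares of the same 15164, 1.6% were called lower in the mutant and 0.448% higher. Of 13 microspore and pollen genes 7 were measured, of which 4 did not pass and 3 fell. These were ACT12, a pollen actin gene (log2 difference -2.70 ± 0.50, SE, limma adjusted p = 0.0328), the MADS-box gene AGL104, which acts in pollen maturation (-2.21 ± 0.33, adjusted p = 0.0171), and VEX1, a vegetative cell gene of pollen (-2.67 ± 0.52, adjusted p = 0.0392). On all probe sets none of the 3 passed, and as deposited ACT12 and VEX1 did not (adjusted p = 0.0716 and 0.0794); with 1 array left out ACT12 and VEX1 passed in 1 of 6 tests each, the one without mutant replicate 4, and AGL104 in 3. The summed intensity of the 7 ran from 289 to 2078 in the mutant and from 4300 to 6820 in wild type, and none of the 7 was at the floor on all arrays of a group. Of the 12 meiosis genes 4 were measured, and their sum ran from 92.1 to 111 in the mutant and from 96.2 to 122 in wild type, but these dim genes did not move together. None of the 4 passed: MND1, with every mutant array above the wild-type arrays, differed by 0.65 ± 0.28 (adjusted p = 0.386) and SPO11-2 by -0.95 ± 0.37 (adjusted p = 0.504 on all probe sets). The tapetal gene ATA27 was bright on every array, between 3095 and 6483 in the mutant and between 5913 and 8525 in wild type, and did not pass. UND, a tapetal protease gene, had 181, 104 and 29.5 on mutant replicates 1, 4 and 5-2, against 406, 848 and 1127 on wild-type replicates 2, 5 and 6, and fell (log2 difference -3.15 ± 0.63, adjusted p = 0.0406). UND did not pass on all probe sets (adjusted p = 0.314), as deposited (0.0895) or after quantile normalization (0.0613), and passed in 2 of the 6 tests with 1 array left out. Sepal, petal and carpel genes summed to 145 to 187 in the mutant and 128 to 165 in wild type for the 2 measured of 8, INO and SPT, and neither passed (log2 differences 0.55 ± 0.34 and 0.085 ± 0.26, adjusted p = 0.601 and 0.95). The green tissue genes LHCB4.1 and RCA, 2 of 4, summed to 807 to 1171 in the mutant and 478 to 812 in wild type. Neither passed (log2 differences 0.86 ± 0.33 and 0.58 ± 0.30, adjusted p = 0.311 and 0.502). Every mutant array lay above the wild-type arrays for RCA, as for MND1 and for 8.38% of the 15164 brighter probe sets. As deposited the RCA groups overlapped, at 189 on mutant replicate 5-2 and 200 on wild-type replicate 6. No endothecium gene of 3 was analysed here. The part of any of these cells in the values of SPL, EMS1, ROXY1 and ROXY2 was not tested.

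Genes whose values followed those of the 4 most closely were found by the root mean square distance between log2 values over the 6 arrays, each gene centred on its own mean, among 8393 brighter probe sets that name 1 gene. The nearest to SPL were AT1G03910, AT2G42950 and AT5G09880, at distances of 0.052, 0.055 and 0.058, where the median over all candidates was 0.39. The nearest to EMS1 were AT4G38350, AT1G04680 and chr31 (AT1G05490), at 0.10, 0.11 and 0.12 against a median of 0.53. For ROXY1 they were AT1G32610, AT1G53380 and AT3G49310, at 0.088, 0.11 and 0.12 against 0.58, and for ROXY2 they were AT1G69580, AT2G46600 and AT5G27510, at 0.19, 0.22 and 0.24 against 0.85. None of these 12 genes passed the test between genotypes. With 6 arrays and so many candidates, some close matches are found for almost any gene, and the distances are a description only. Among the 4 genes themselves the closest pairs were ROXY1 with ROXY2, at 0.43, and SPL with EMS1, at 0.46. The most distant was SPL with ROXY2, at 0.89. For ROXY1, 3 wild-type values and 1 mutant value were raised to the floor, and for ROXY2 2 wild-type values were. Every distance from ROXY1 or ROXY2, to each other or to their nearest genes, thus depends on the floor. Distances without the floor were not computed.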

How the data were processed

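Biotin-labelled anther RNA was hybridised to 6 arrays. From their range and spread, the authors' deposited values are linear intensities for each probe set; the sources used here do not say how they were computed. Their mean, with 2% trimmed at each end, is 150.01 on every array to within rounding.

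Array medians differed by 0.323 on the log2 scale, so each array was multiplied by 1 factor (0.897 to 1.12), values under 16 were raised to 16, and log2 was taken. Between 19.0% and 22.0% of probe sets were at the floor. The ratio of 3' to 5' signal ran from 17.1 to 29.6 in the mutant and from 13.3 to 24.7 in wild type for 1 actin control, from 16.2 to 32.8 and from 25.1 to 34.4 for another, and from 2.39 to 4.08 and from 3.91 to 4.57 for GAPDH. The 64 control probe sets were left out. Tests used R 4.3.3 and limma 3.58.1 (lmFit, eBayes, no covariate), with statmod 1.5.0 for array weights. The limma fit was tested on simulated data drawn from the brighter probe sets only. The fit on all probe sets, the array weights and the permutation test were not tested in this way. On all probe sets limma's prior had 0.728 degrees of freedom and 1449 probe sets had no variance; without the dimmest 1 in 3 the values were 5.39 and 0.

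Probe sets were named by gene identifier through the platform's annotation and RefSeq's TAIR10.1 symbols: 13513 had 1 gene, of which 13436 matched RefSeq, 503 had several and 8730 are unnamed here. No genome build is named in the files, so no coordinates are given. SPL, EMS1, ROXY1, ROXY2 and the gene lists were chosen with earlier results of these data known. The rule for named genes takes these 4 and the 3 nearest genes to each by distance. Of each list it takes up to 4 called genes or else the 2 with the smallest unadjusted p. ATA27, AT3G62950 and AT4G15690 are named outside this rule. Any other gene is marked as named after its values were seen. Alternatives were the deposited scale, quantile normalization, other floors and filters, other variance models and leaving out each array.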

Additional observations from a re-analysis of the deposited data

How the results depend on the processing

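No alternative brought SPL, EMS1, ROXY1 or ROXY2 past the threshold (limma adjusted p at lowest 0.824, 0.285, 0.167 and 0.202). EMS1, ROXY1 and ROXY2 kept their direction under each one run. With 1 array left out, the log2 difference ran from -0.19 to 0.092 for SPL, changing sign without mutant replicate 4 (0.092) and without wild-type replicate 6 (0.075), from 0.42 to 0.83 for EMS1, from 0.34 to 0.91 for ROXY1 and from 0.81 to 1.51 for ROXY2. The ratio of ROXY1 to EMS1 ran from -0.45 to 0.48, with the sign turned without mutant replicate 5-2 (0.48) and without wild-type replicates 2 (0.041) and 6 (0.080). ROXY1 was left out by each filter on dim probe sets, and ROXY2 by all but the dimmest 1 in 4, so these gave no value there.

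The number of probe sets called, 311, was 141 as deposited, 194 after quantile normalization, 70 with no floor, 3 with no filter, 1 with 1 probe set per gene, 527 with a mean-variance trend, 650 with array weights and 541 at an adjusted p under 0.1. Leaving out mutant replicate 1, 4 or 5-2 gave 175, 534 and 39, and leaving out wild-type replicate 2, 5 or 6 gave 54, 32 and 77. As deposited, 54 were higher and 87 lower, against 68 and 243. In the lists around the 4 genes the count of 1 became 0 with no filter, 0 with 1 probe set per gene and 2 with array weights, and ran from 0 to 3 with an array left out: 3 without mutant replicate 4, and 0 without mutant replicate 5-2 or any 1 wild-type replicate. AT3G62960 did not pass with 1 probe set per gene (limma adjusted p = 0.236). That setting was run in place of the filter and kept dim probe sets, so it differs from the main test in both respects. With no filter the limma adjusted p of AT3G62960 was 0.221. The cause of these changes was not tested. No paired analysis was possible because the replicate names of the groups share fewer than 2 numbers.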
